A study of Rattus norvegicus with 6 samples.

Results

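The genes described here encode the antioxidant and detoxifying machinery linked to the transcription factor NRF2. They are NRF2 itself and its repressor, NRF2-induced genes, and the glutathione and thioredoxin systems with the peroxiredoxins, peroxidases, transferases, superoxide dismutases and catalase. Members were found by gene symbol: 20 genes named one by one, and every gene whose symbol opens with Gsta, Gstm, Gstp, Gstt, Gsto, Mgst, Prdx, Gpx or Txnrd and a digit. This gave 54 genes with 62 probe sets, out of 14217 genes and 31042 probe sets measured. Of the 20 genes named one by one, 18 were measured. The ferritin genes Fth1 and Ftl1 are represented only by probe sets that list several genes, and no value is given under their names. In all, 4 probe sets list a member together with other genes. Prdx1, Gsta2 and Gsta5 are also represented only by such probe sets. Of these 4 probe sets, 1 was lower after tamoxifen, by 0.33 log2 units. The other 3, among them those listing Prdx1 and Gsta2 with Gsta5, did not pass the test.

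The study treated cultured primary Schwann cells, the glia that wrap peripheral axons, taken from rat sciatic nerve. All cells in both groups carried RafER, a Raf kinase that the estrogen receptor ligand tamoxifen switches on. After a period in a serum-free minimal medium, the cells received the ethanol vehicle (3 arrays) or tamoxifen (3 arrays) for 24 h in 3 experiments that the design text calls independent. The source labels speak of treated rats, the design text of treated cultures, and the design text was followed. The labels give no strain or age, and with no cells lacking RafER among the arrays analysed, effects of Raf and of tamoxifen itself cannot be told apart. In RNA pooled from a culture, more RNA per cell and more cells of one kind cannot be told apart either.

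As background, NRF2 (gene Nfe2l2) is held in the cytoplasm and marked for destruction by its sensor KEAP1. When electrophiles or oxidants modify KEAP1, NRF2 enters the nucleus, pairs with small MAF proteins and binds antioxidant response elements. Its targets make and recycle glutathione, reduce thioredoxin and attach glutathione to reactive compounds. Glutathione and thioredoxin in turn supply electrons to the peroxidases and peroxiredoxins that remove hydrogen peroxide, the product of the superoxide dismutases.

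After tamoxifen 3 of 5 genes of glutathione synthesis and recycling and 3 of 6 genes of the thioredoxin system rose, and 1 of each fell. Over all genes measured, 13.9% rose and 17.3% fell. The transferase genes divided between rises and falls, and of the superoxide dismutases and catalase 2 of 4 fell and none rose. Gss rose 4.93-fold, Gclc 4.11-fold, Hmox1 3.19-fold, Srxn1 2.58-fold and Txnrd1 2.46-fold. Gsta1 rose 8.58-fold as measured. Its vehicle values and those of Hmox1 were dim and may lie at background, where the size of a fold is uncertain and may be understated. Gstm5, Gsta4 and Gstt2 fell by 1.82, 1.66 and 1.60 log2 units and Sod3 fell by 1.41. Nfe2l2 rose, a call that did not hold without both arrays of experiment 1. Keap1 fell by its brighter probe set, and its dimmer one did not pass. Nqo1 did not pass, nor did Gclm, which was lower in each experiment. Of 21 further genes often listed as NRF2 targets, 2 rose and 6 fell.

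Of the 54 member genes, 12 (22.2%) were higher and 11 (20.4%) lower after tamoxifen at an adjusted p below 0.05 (limma, Benjamini-Hochberg over all probe sets). Among all genes measured, 13.9% were higher and 17.3% lower. The share of lower members was thus near that of all genes. The counts by role and by list below are to be read beside the shares of all genes. By probe set, 15 of 62 (24.2%) were higher and 12 (19.4%) lower, against 11.5% and 12.9% of all probe sets. Unlike the members, all probe sets include 9780 with no gene symbol and 436 with several. For 32 members (59.3%) the groups did not overlap, against 49.1% of all genes. The median log2 difference, tamoxifen minus vehicle, was 0.04 over the members and 0.01 over all genes. The median size of the difference, whatever its sign, was 0.48 over the members and 0.25 over all genes. Each gene is given by its probe set of highest mean value, and log2 values set no gene's level against another's. Of the members, 13 had a mean log2 value under 6 over all arrays, and none of these 13 was called. That mean depends on the change itself: the vehicle means of Gsta1 and Hmox1 and the tamoxifen mean of Mgst1 were under 6, and the other group's mean was above it. The number of lower members was 7 without the tamoxifen array of experiment 1 and also 7 without that of experiment 3. Over all genes the number of lower calls went from 2454 to 1930 and 1688 in the same fits. The number of higher members ranged from 9 without tamoxifen array 2 to 14 without tamoxifen array 1. In these 2 fits 1374 and 1788 of all genes were higher, against 1979 with all arrays.

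**Figure D1:**
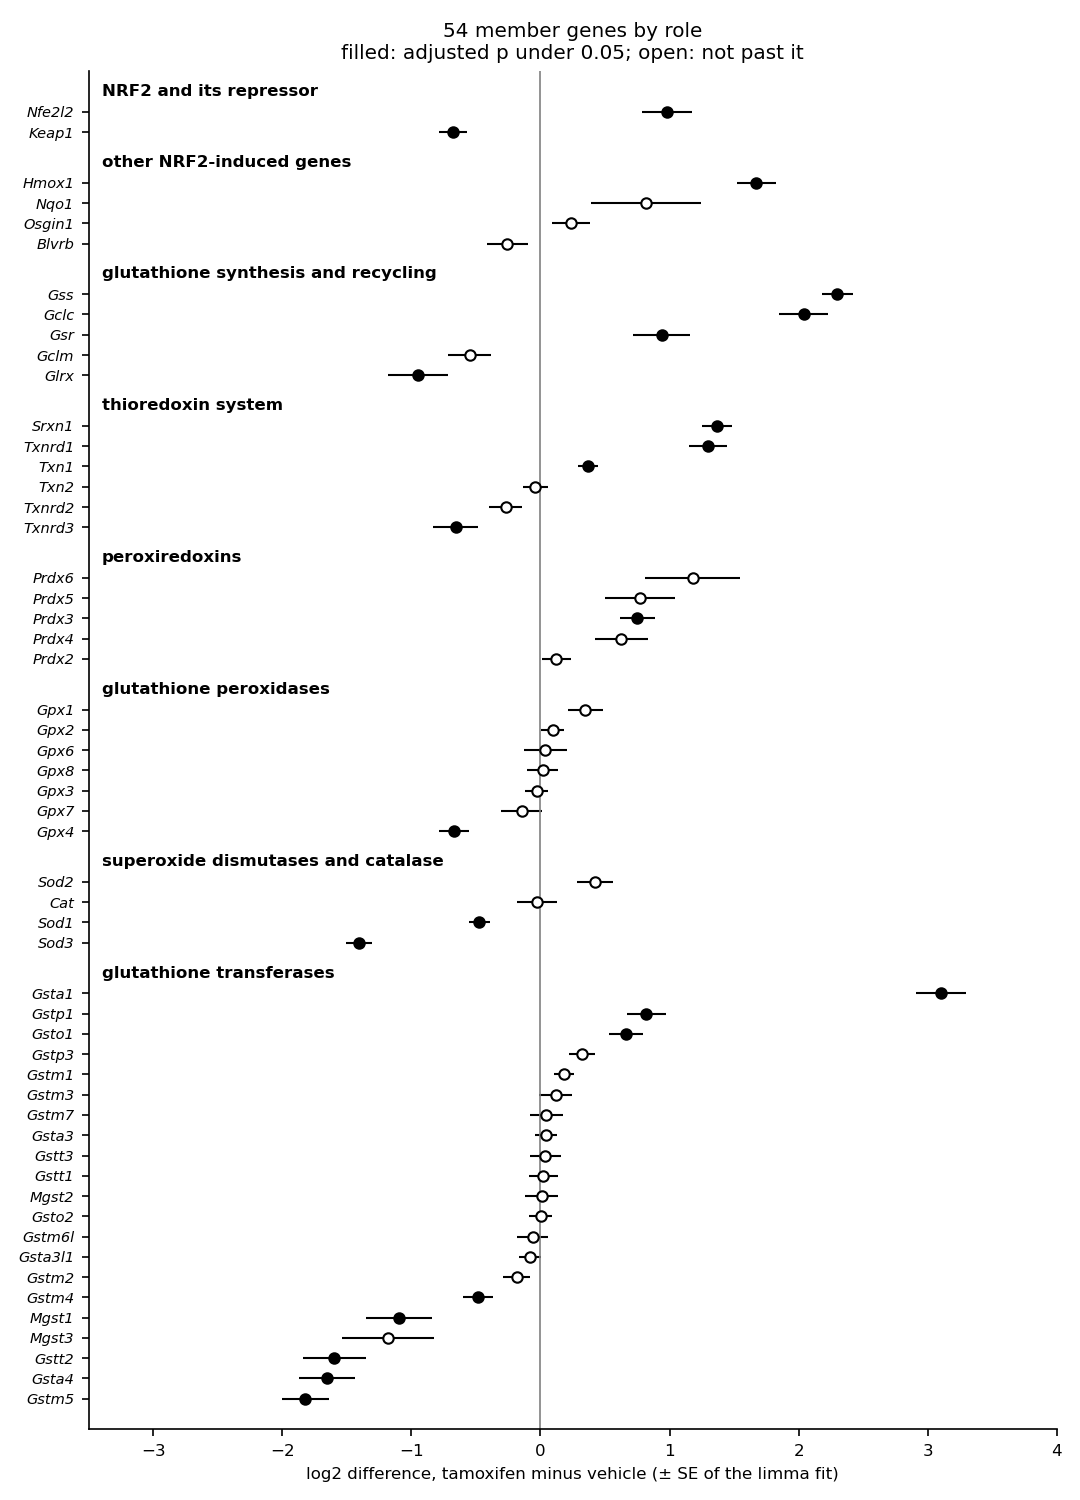
Points give the log2 difference between tamoxifen and vehicle means (positive where tamoxifen is higher) and bars the limma standard error for each of the 54 member genes by role; filled points passed an adjusted p of 0.05. The 12 filled points right of the line run up to 3.10 for Gsta1, and the 11 filled points left of it down to -1.82 for Gstm5.

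Some facts of the arrays bear on single genes. On the vehicle array of experiment 1, 3' control probe sets exceeded 5' ones by more (0.84 log2 units) than on the other 5 arrays (0.16 to 0.27), a sign of weaker 5' signal. Schwann markers were high on all arrays. Of 6 measured, 2 (Ngfr and S100b) were lower and none higher after tamoxifen, and their mean log2 value was 11.1 to 11.5 on vehicle and 10 to 10.9 on tamoxifen arrays. Of 9 fibroblast markers Fbln1 and Pdgfra were higher and Col1a1 and Col3a1 lower, and the mean of all 9 was 7.02 to 7.09 on vehicle and 6.94 to 7.06 on tamoxifen arrays. None of 9 macrophage, 5 endothelial and 6 smooth muscle and pericyte markers was called. Of these, 8 macrophage, all 5 endothelial and 4 smooth muscle and pericyte markers had means under 6. Their part in the results was not tested.

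The core of the antioxidant response element, TGACNNNGC, was searched on both strands of the RefSeq promoters (GRCr8, 250 bases before to 50 after each gene's start), where N is any base. Promoters were found for 45 of the 54 members, 50 in all, of which 12 (24%) held a match, against 12.1% of all 33469 promoters of this length. A match was found for 4 of 10 higher members (Gsta1, Gstp1, Nfe2l2 and Txnrd1), 1 of 9 lower members (Gstm5) and 7 of 26 members not called. A match says only that these letters are there, and elements outside this window were not searched. Matches of some members, including some not called such as Gsta3, are shown with 10 bases on each side where the promoter allows. They are in the direction of the gene, with the match in capitals. Those of Gpx2, Gstm7 and Prdx4 are not shown, and those of Gstm5 are shown further below.

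Txnrd1 (chr7:22755964-22755992, minus strand): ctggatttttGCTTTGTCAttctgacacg
Gstp1 (chr1:210769748-210769776, minus strand): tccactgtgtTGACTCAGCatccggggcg
Nfe2l2 (chr3:81028950-81028971, minus strand): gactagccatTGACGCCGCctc
Gclm (chr2:213031953-213031981, plus strand): tgcggtttctGCTTAGTCAttgtcttcca
Prdx5 (chr1:213532010-213532038, minus strand): cctcctgtggGCAGAGTCAtctgcgggtg
Sod2 (chr1:50050185-50050213, minus strand): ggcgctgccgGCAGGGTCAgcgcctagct
Gsta1 (chr9:31216484-31216512, minus strand): aactcaggcaTGACTTTGCatttttcttc
Gsta3 (chr9:31154962-31154990, plus strand): aactcaggcaTGACTTCGCattttttcct

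The window of Nfe2l2 ends with its promoter, and those of Nfe2l2 and Gsta1 lie after the start. The match lies 78 bases before the start of Txnrd1, 61 before that of Gstp1 and 172 before that of Gclm. In Txnrd1, Gclm, Prdx5 and Sod2 it is on the opposite strand, so the capitals show its complement. The Gsta1 and Gsta3 windows share their first 16 bases. The promoters of Gclc and Gss in the table, the genes of glutathione synthesis with the largest rises, held no match.

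Nfe2l2, which encodes NRF2, had log2 values of 10.57, 10.51 and 11.20 on the vehicle arrays of experiments 1, 2 and 3 and 11.77, 11.62 and 11.83 on the tamoxifen arrays. All tamoxifen values were above all vehicle values, and the vehicle array of experiment 3 was the nearest to them. The rise was 0.98 ± 0.19 log2 units (SE, adjusted p = 0.0124, limma). It passed without any single array but not when both arrays of experiment 1 were left out (0.87, adjusted p = 0.0767). Keap1, the adaptor that targets NRF2 for degradation, had 8.98, 8.78 and 8.71 in vehicle and 8.06, 8.24 and 8.14 after tamoxifen. It fell by 0.68 ± 0.10 (adjusted p = 0.00524), and the groups did not overlap. Its dimmer probe set gave -0.55 and did not pass (adjusted p = 0.101).

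Among 4 other NRF2-induced genes 1 rose and none fell. Hmox1, heme oxygenase-1, which degrades heme to biliverdin, had 5.64, 5.75 and 6.18 in vehicle and 7.60, 7.44 and 7.56 after tamoxifen. The rise of 1.67 ± 0.15 (adjusted p = 0.000937) came from a low level, and the 3 tamoxifen arrays lay close together. Nqo1, a quinone reductase often read as a marker of NRF2 activity, had 10.88, 11.84 and 12.73 in vehicle and 12.49, 12.59 and 12.82 after tamoxifen. The vehicle arrays were spread over nearly the whole range and the groups overlapped. The difference of 0.82 ± 0.43 did not pass (adjusted p = 0.225). It was 0.35 without the vehicle array of experiment 1, and 1.28 without that of experiment 3, where it passed (adjusted p = 0.0299). Osgin1, an oxidative stress-induced growth inhibitor, differed by 0.24 ± 0.15, and Blvrb, a biliverdin reductase, by -0.26 ± 0.16. Neither passed.

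Of 5 genes of glutathione synthesis and recycling 3 rose and 1 fell, and none overlapped between groups. The groups likewise did not overlap for 49.1% of all genes. Gclc, the catalytic subunit of glutamate-cysteine ligase, which performs the rate-limiting step, had 7.44, 6.89 and 7.19 in vehicle and 9.01, 9.09 and 9.54 after tamoxifen. Every tamoxifen array was above every vehicle array by over a log2 unit, and the rise was 2.04 ± 0.19 (adjusted p = 0.00103). Its dimmer probe set gave 2.10. Gss, glutathione synthetase, which adds glycine in the last step, had 7.82, 8.05 and 8.15 in vehicle and 10.18, 10.30 and 10.45 after tamoxifen, a rise of 2.30 ± 0.12 (adjusted p = 0.000156). Both groups were tight, with SDs of 0.17 and 0.13 (n = 3).

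Gclm, the modifier subunit that raises the efficiency of GCLC, went the other way in each experiment. It had 9.82, 10.06 and 9.59 in vehicle and 9.36, 9.46 and 9.01 after tamoxifen, a difference of -0.55 ± 0.17 (adjusted p = 0.0564). It passed as lower in the fit blocked by experiment (adjusted p = 0.0112), and likewise without the vehicle array of experiment 3 (0.0439). The change of Gclc exceeded that of Gclm by 2.03 to 2.93 log2 units in the 3 experiments. This pair was chosen after its values were seen and was not tested.

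Gsr, glutathione reductase, which returns oxidised glutathione to its reduced form with NADPH, had 6.20, 6.92 and 6.61 in vehicle and 7.18, 7.68 and 7.69 after tamoxifen. The rise of 0.94 ± 0.22 (adjusted p = 0.023) did not pass when vehicle array 3, tamoxifen array 2 or tamoxifen array 3 was left out. Glrx, glutaredoxin, which removes glutathione from proteins, had 8.02, 8.31 and 7.53 in vehicle and 6.97, 7.33 and 6.72 after tamoxifen. The lowest vehicle and highest tamoxifen values were close, 7.53 and 7.33. It fell by 0.95 ± 0.23 (adjusted p = 0.0271), and its second probe set, also called, gave -1.29. Leaving out vehicle array 1 or 2, or tamoxifen array 1 or 3, ended the call.

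**Figure D2:**
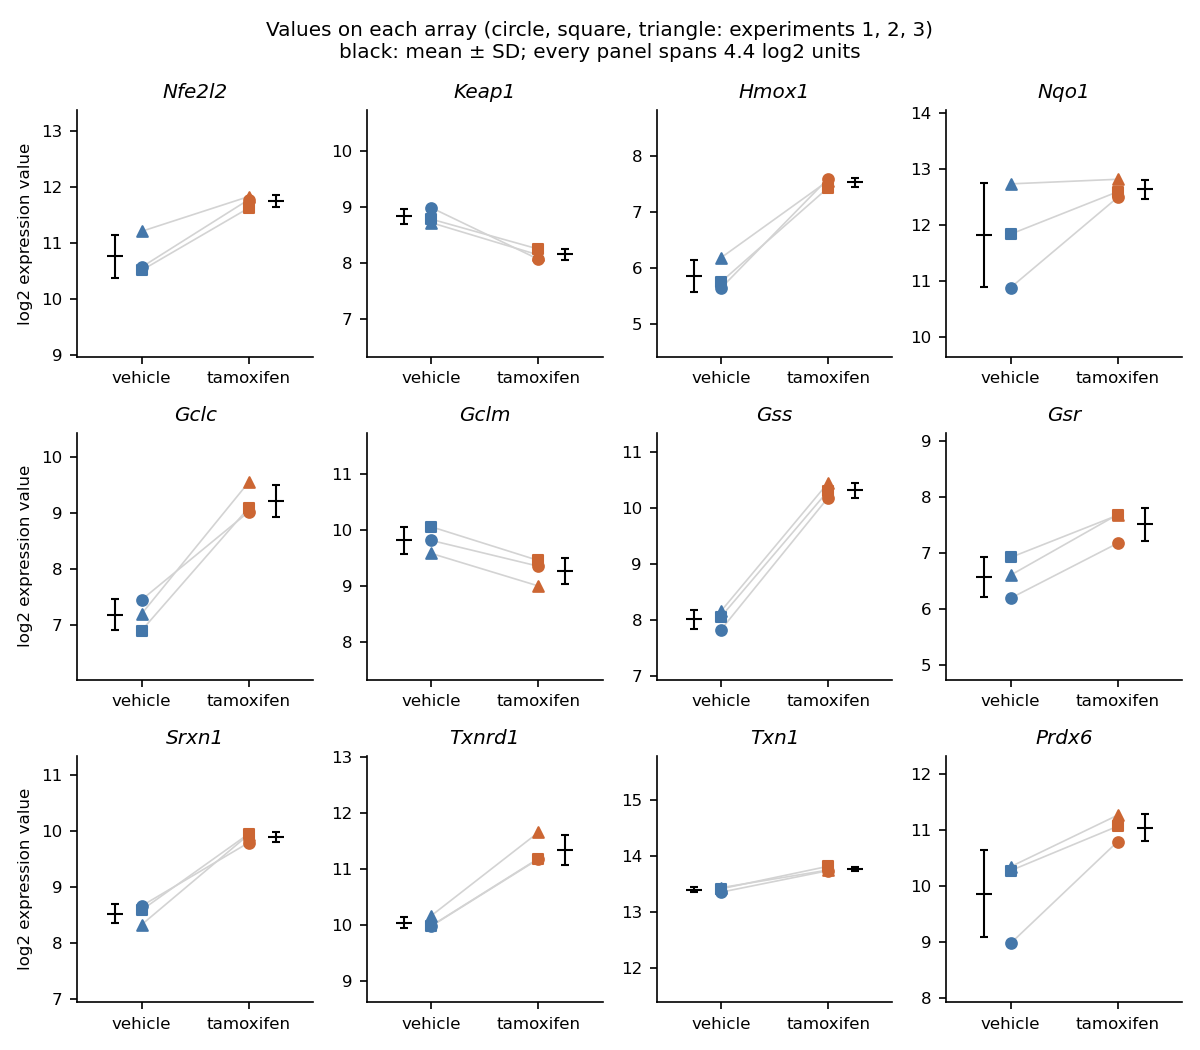
Log2 expression values on each of the 6 arrays are plotted for 12 members, with lines joining arrays of the same experiment and black bars for the mean ± SD of each group. The tamoxifen points lie above the vehicle points in all panels but those of Keap1 and Gclm, where they lie below, and Nqo1, where the vehicle points spread from 10.88 to 12.73 and overlap.

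In the thioredoxin system 3 of 6 genes rose and 1 fell. Srxn1, sulfiredoxin, which repairs over-oxidised peroxiredoxins, had 8.67, 8.59 and 8.33 in vehicle and 9.80, 9.96 and 9.94 after tamoxifen, a rise of 1.37 ± 0.11 (adjusted p = 0.000725). A second probe set gave 1.79, with its lowest vehicle value, 6.52, on the array with weak 5' signal against 7.90 and 7.37. The dimmest gave 0.12 at a level of 4.54 in vehicle and did not pass. Txnrd1, the cytosolic thioredoxin reductase whose promoter match is printed above, had 9.98, 9.99 and 10.17 in vehicle and 11.18, 11.19 and 11.66 after tamoxifen. The groups stood clear of each other, and the rise was 1.30 ± 0.15 (adjusted p = 0.002), or 1.73 by its dimmer probe set. That probe set read 8.58 on the vehicle array with weak 5' signal, against 9.53 and 9.66 on the others. The 250 bases before its start are shown with the match in capitals (chr7:22755905-22756154, minus strand).

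Txnrd1 promoter: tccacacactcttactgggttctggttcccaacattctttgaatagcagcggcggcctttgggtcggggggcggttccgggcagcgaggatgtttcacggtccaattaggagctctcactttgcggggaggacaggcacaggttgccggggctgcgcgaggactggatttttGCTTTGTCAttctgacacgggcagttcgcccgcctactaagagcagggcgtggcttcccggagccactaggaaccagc

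The other thioredoxin reductases did not share this rise. Txnrd3, a reductase fused to a glutaredoxin domain, fell by 0.66 ± 0.18 (adjusted p = 0.0374). Leaving out vehicle array 1 or 3, or any 1 tamoxifen array, ended the call, and so did the 3' to 5' covariate (adjusted p = 0.101). The mitochondrial Txnrd2 differed by -0.27 ± 0.13 and did not pass. The change of Txnrd1 exceeded that of Txnrd3 by 1.37 to 2.38 log2 units in the 3 experiments, a pair also chosen after its values were seen. Txn1, cytosolic thioredoxin, was already high, with 13.35 to 13.43 in vehicle and 13.73 to 13.81 after tamoxifen. It rose by 0.37 ± 0.08 (adjusted p = 0.0164), a call lost without tamoxifen array 2, and mitochondrial Txn2 differed by -0.04 ± 0.10.

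All 5 peroxiredoxins with probe sets of their own had higher mean values after tamoxifen, and 1 passed. Prdx3, the mitochondrial peroxiredoxin, went from 9.80 ± 0.05 to 10.55 ± 0.26 (SD, n = 3), a rise of 0.75 ± 0.14 (adjusted p = 0.00979). Prdx6, which reduces phospholipid hydroperoxides, had 8.98, 10.28 and 10.35 in vehicle and 10.80, 11.07 and 11.27 after tamoxifen. Its vehicle value in experiment 1, on the array with weak 5' signal, stood well below the others. The difference of 1.18 ± 0.37 did not pass (adjusted p = 0.06). It passed in the blocked fit (adjusted p = 0.0158), and without vehicle array 1 a smaller difference of 0.73 passed too (0.02). Prdx5 differed by 0.77 ± 0.27 (adjusted p = 0.0861). It passed in the blocked fit (0.039) and without tamoxifen array 1 (0.0342). Prdx4, the peroxiredoxin of the endoplasmic reticulum, differed by 0.63 ± 0.20 and the cytosolic Prdx2 by 0.12 ± 0.11. For Prdx3 to Prdx6 the groups did not overlap, as for 49.1% of all genes.

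The glutathione peroxidases moved little. Of 7 genes none rose and 1 (14.3%) fell, against 13.9% higher and 17.3% lower over all genes. Gpx4, which detoxifies lipid hydroperoxides and guards against ferroptosis, had 12.32, 12.24 and 12.14 in vehicle and 11.41, 11.75 and 11.54 after tamoxifen. It fell by 0.67 ± 0.11 (adjusted p = 0.00739), while its dimmer probe set gave 0.00 and did not pass. Gpx1, the main cytosolic peroxidase, differed by 0.35 ± 0.14 with no overlap and did not pass (adjusted p = 0.118). The other 5 had differences of -0.14 to 0.09.

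Of the superoxide dismutases and catalase, 2 of 4 fell and none rose. Sod3, the secreted extracellular dismutase, had 12.98, 12.92 and 12.70 in vehicle and 11.46, 11.51 and 11.42 after tamoxifen. The tamoxifen arrays lay within 0.1 of each other, and the fall of 1.41 ± 0.10 (adjusted p = 0.00047) passed without any single array. Sod1, the cytosolic copper-zinc dismutase, went from 13.38 ± 0.04 to 12.90 ± 0.05 and fell by 0.47 ± 0.08 (adjusted p = 0.00692). Sod2, the mitochondrial manganese enzyme, differed by 0.42 ± 0.14 in the other direction. It did not pass (adjusted p = 0.0739) except in the blocked fit (0.0444) or without tamoxifen array 1 (0.0223). In the 3 experiments the change of Sod2 exceeded that of Sod3 by 1.77 to 1.90, again a pair chosen after its values were seen. Cat, catalase, differed by -0.03 ± 0.16.

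The 21 glutathione transferase genes split, with 3 higher, 5 lower and 13 not called. The shares were 14.3% higher and 23.8% lower, against 13.9% and 17.3% of all genes. Those that rose belong to the alpha, pi and omega classes. Gsta1, an alpha-class enzyme with peroxidase activity toward lipid hydroperoxides, had 4.90, 4.77 and 5.02 in vehicle and 8.05, 8.35 and 7.59 after tamoxifen. It went from a dim level to a clear one on every tamoxifen array, a measured rise of 3.10 ± 0.19 (adjusted p = 0.000292), whose size is uncertain because the vehicle level may be background. Gstp1, the pi-class enzyme, went from 12.91 ± 0.27 to 13.73 ± 0.11 and rose by 0.82 ± 0.15 (adjusted p = 0.00953). Gsto1, of the omega class, rose by 0.66 ± 0.13 (adjusted p = 0.0135), a call lost without tamoxifen array 2.

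The falls were in another alpha member and in the mu, theta and microsomal classes. Gsta4, which conjugates the lipid peroxidation product 4-hydroxynonenal, had 11.05, 11.04 and 10.79 in vehicle and 9.47, 9.63 and 8.81 after tamoxifen. It fell by 1.66 ± 0.22 (adjusted p = 0.00292), opposite to Gsta1, with the change of Gsta1 above that of Gsta4 by 4.55 to 4.99 in the 3 experiments (chosen after seeing the values). Gstm5, of the mu class, had 10.21, 10.27 and 10.22 in vehicle and 8.28, 8.83 and 8.12 after tamoxifen. Its vehicle arrays agreed within 0.1 and its fall was 1.82 ± 0.18 (adjusted p = 0.00125), the largest among the members. Gstt2, of the theta class, had 7.65, 8.15 and 8.66 in vehicle and 6.43, 6.54 and 6.71 after tamoxifen. It fell by 1.60 ± 0.25 (adjusted p = 0.00513), while its dimmer probe set gave -0.10 and did not pass.

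Mgst1, a membrane-bound transferase, had 7.12, 6.95 and 6.31 in vehicle and 5.71, 6.04 and 5.34 after tamoxifen. It fell by 1.09 ± 0.26 (adjusted p = 0.0226), and Gstm4 fell by 0.49 ± 0.12 (adjusted p = 0.0242). Both calls ended when vehicle array 1 or 2, or tamoxifen array 1 or 3, was left out. Mgst3 had a larger but more variable difference of -1.18 ± 0.36 (adjusted p = 0.0557), which passed without vehicle array 1 (0.0398) or tamoxifen array 2 (0.0463). The 12 other transferases had differences of -0.18 to 0.32, and 11 of them had mean log2 values under 6. The brightest of them, Gstm1, differed by 0.19 ± 0.08 with no overlap. Gsta3, whose promoter window resembles that of Gsta1, stayed at 3.95 ± 0.07 and 3.99 ± 0.08. Transferases of one class are close in sequence and probe sets can share signal, so single members carry that limit.

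**Figure D3:**
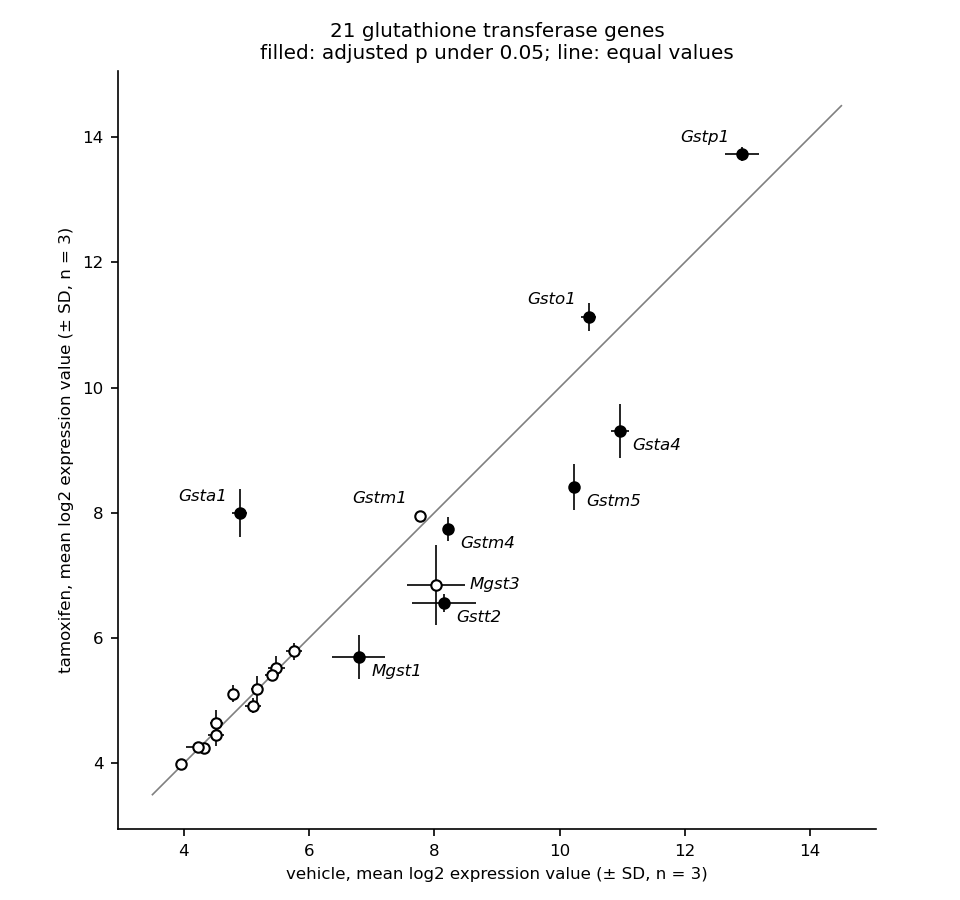
Mean log2 values after tamoxifen are plotted against those in vehicle for the 21 glutathione transferase genes, with SD bars (n = 3) and a line of equal values; filled points passed an adjusted p of 0.05. Gsta1 lies far above the line, Gstp1 and Gsto1 lie above it at high values, and Gsta4, Gstm5, Gstt2, Gstm4 and Mgst1 lie below it.

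The 7 measured Gstm genes lie together on chromosome 2 in the RefSeq table, with 2 other protein-coding genes among them. At the ends of that row lie Gstm5 and Gstm4, which both fell, and the 5 between them were not called. On chromosome 9, Gsta1 rose near Gsta3 and Gsta3l1, which were dim in both groups. On chromosome 20, Gstt2 fell near Gstt1 and Gstt3, which were not called. The upstream 250 bases of Gstm5 are shown because it fell the most and its promoter holds the core motif at 2 places, in capitals, 113 and 53 bases before the start (chr2:198219519-198219768, plus strand).

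Gstm5 promoter: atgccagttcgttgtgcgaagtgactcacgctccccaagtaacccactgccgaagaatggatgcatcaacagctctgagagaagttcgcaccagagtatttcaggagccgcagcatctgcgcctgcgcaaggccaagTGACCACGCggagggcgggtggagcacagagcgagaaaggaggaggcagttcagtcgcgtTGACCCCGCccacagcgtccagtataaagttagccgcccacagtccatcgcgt

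Other genes of the pathway were taken from 7 lists chosen for their function. The share called in each list stands against 13.9% higher and 17.3% lower over all genes. Up to 2 rises and 2 falls per list are described, and the remaining called genes were added after their values were seen. For those remaining genes no fits with arrays left out are given. Of 10 partners and repressors of NRF2 none rose and 3 (30%) fell. Btrc, a ubiquitin ligase subunit that can target NRF2 independently of KEAP1, fell by 1.32 ± 0.16 (adjusted p = 0.00249), also by both its other probe sets (-1.02 and -0.63). Sqstm1, the autophagy adaptor p62, which sequesters KEAP1, fell by 1.29 ± 0.17 (adjusted p = 0.00318). Of its other probe sets 1 also fell (-1.11). Those at 4.37 and 6.26 in vehicle gave 0.04 and 0.37 and did not pass. The brighter of these 2 went the other way with no overlap between groups (adjusted p = 0.0761). Mafk, a small MAF partner of NRF2, fell by 1.04 ± 0.14.

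Of 21 further enzymes and transporters often listed as NRF2 targets, 2 (9.52%) rose and 6 (28.6%) fell, a median of -0.09. Of the 21, 8 had mean log2 values under 6, which may lie at background. Akr1b8, an aldo-keto reductase, had 5.61, 5.89 and 6.28 in vehicle and 11.59, 11.99 and 12.90 after tamoxifen, a measured rise of 6.23 ± 0.34 (adjusted p = 0.000183) from a vehicle mean under 6. The carbonyl reductase gene Cbr3 rose by 1.70 ± 0.20. Nqo2, a relative of Nqo1, fell by 1.22 ± 0.11 and the efflux transporter gene Abcc4 fell by 1.04 ± 0.20. The remaining falls were Ugdh, a maker of UDP-glucuronate (-0.87), Fech, the last enzyme of heme synthesis (-0.80), the heme transporter gene Slc48a1 (-0.74) and the prostaglandin reductase gene Ptgr1 (-0.71). The 2 rises exceeded any fall in size, although that of Akr1b8 started from a dim level. Falls were the more frequent in this list, as they were over all genes (17.3% lower and 13.9% higher).

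Of 9 genes that supply NADPH, 4 (44.4%) rose and 2 (22.2%) fell. The pentose phosphate genes Rpia and Tkt rose by 1.89 ± 0.24 and 1.25 ± 0.23, although the second probe set of Rpia (0.33, adjusted p = 0.0603) did not pass. Idh1, the cytosolic isocitrate dehydrogenase, fell by 1.42 ± 0.22 and the mitochondrial transhydrogenase gene Nnt fell by 0.76 ± 0.15. Malic enzyme gene Me1 rose by 1.11 ± 0.27 (adjusted p = 0.0253). Pgd, of the pentose phosphate pathway, rose by 0.40 ± 0.11, close to the threshold (adjusted p = 0.0466). A dim second probe set of Idh1 gave -0.17 and did not pass.

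Of 18 genes of glutathione supply and turnover 3 (16.7%) rose and 1 (5.56%) fell, the rises near the share over all genes. Of the 18, 5 had mean log2 values under 6. Slc1a4, a transporter of neutral amino acids, rose by 1.69 ± 0.18 and Chac1, which degrades glutathione, by 1.34 ± 0.08. Ggt1, which begins the breakdown of extracellular glutathione, rose by 0.37 ± 0.09 (adjusted p = 0.0302). Gstz1 fell by 0.49 ± 0.13 (adjusted p = 0.0349), a call that ended in the blocked fit (0.0641) and without any 1 array other than tamoxifen array 3. Slc7a11, the cystine importer that feeds glutathione synthesis, was singled out after its values were seen. It had 6.51, 6.92 and 8.23 in vehicle and 8.16, 8.43 and 9.68 after tamoxifen. The groups overlapped, but within the 3 experiments the differences were close, between 1.45 and 1.65. The difference of 1.53 ± 0.54 did not pass (adjusted p = 0.0884), but did in the blocked fit (adjusted p = 0.00111). It also passed without the vehicle array of experiment 3, and without 1 array the difference ranged from 1.07 to 2.04.

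Of 19 thioredoxin-related proteins 7 (36.8%) rose and 5 (26.3%) fell. Sesn2, a stress-induced sestrin, rose by 1.00 ± 0.09 and the methionine sulfoxide reductase gene Msrb3 by 0.73 ± 0.10. Txnip, which binds and inhibits thioredoxin, had 11.19, 11.71 and 12.29 in vehicle and 8.82, 9.17 and 7.23 after tamoxifen, and fell by 3.33 ± 0.53 (adjusted p = 0.00565). Sesn1 fell by 2.42 ± 0.18, the opposite direction to Sesn2, and Sesn3 differed by -0.36 with no overlap and did not pass (adjusted p = 0.107). A dim second probe set of Sesn2 gave 0.12 and did not pass. The monothiol glutaredoxins Glrx3 and Glrx5 rose by 0.63 each and the mitochondrial Glrx2 by 0.61, against the fall of Glrx itself. Txndc5 rose by 0.63 (adjusted p = 0.0342) and Txnl4a by 0.46 (adjusted p = 0.0397). The methionine sulfoxide reductase genes Msrb1 and Msrb2 fell by 0.94 and 0.44, opposite to Msrb3, and Txndc11 fell by 0.49 (adjusted p = 0.0379).

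Of 10 genes of iron handling 2 (20%) rose and 1 (10%) fell. Both risers import iron: Slc39a14, a metal transporter, rose by 2.40 ± 0.18, and Tfrc, the transferrin receptor, by 2.18 ± 0.17, each with a second probe set that also rose (2.45 and 2.66). Ncoa4, the receptor for autophagy of ferritin, fell by 0.34 ± 0.08 (adjusted p = 0.028). That call ended in the blocked fit (0.0564) and without any 1 array other than vehicle array 1.

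Of 15 sources of superoxide and peroxide and metal-binding proteins 2 rose and 2 fell. Each share, 13.3%, was near that of all genes, 13.9% higher and 17.3% lower. Of the 15, 8 had mean log2 values under 6, which may lie at background. Maoa, monoamine oxidase A, which releases hydrogen peroxide, rose by 1.97 ± 0.22. Park7, the redox-sensitive protein DJ-1, fell by 0.83 ± 0.12. Ccs, the copper chaperone that loads SOD1, fell by 0.80 ± 0.11, in the same direction as Sod1. Mt3, a metallothionein, rose by 0.32 ± 0.09 (adjusted p = 0.0393), a call that ended in the blocked fit (0.0581) and whichever 1 array was left out.

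**Figure D4:**
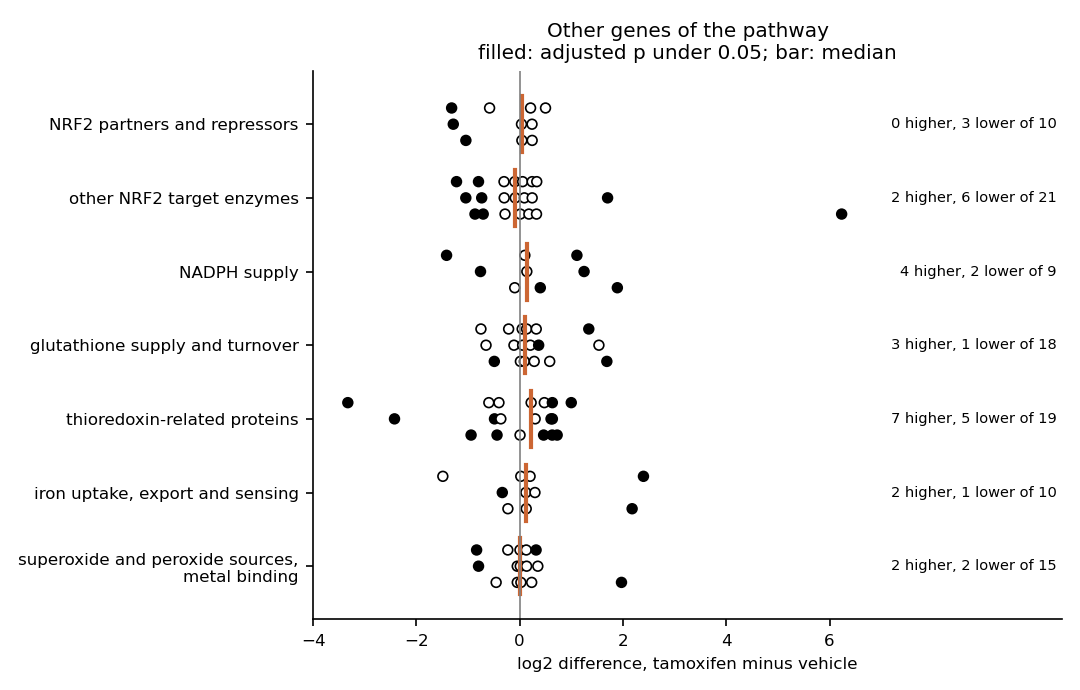
Each point is the log2 difference, tamoxifen minus vehicle, of 1 gene in 7 lists of related genes; filled points passed an adjusted p of 0.05 and bars mark medians. The medians lie between -0.09 and 0.22, while single genes run from -3.33 (Txnip) to 6.23 (Akr1b8).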

How the data were processed

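Affymetrix rat arrays were hybridised with RNA of 3 vehicle and 3 tamoxifen cultures. The authors deposited log2 values per probe set, normalized with RMA according to the submitters' processing notes. Of the RMA version nothing is stated in the labels. Detection calls were not used here, and dim values may lie at background. Precision is limited by the small number of arrays. Of 31099 probe sets, 57 controls were left out. Probe sets with 1 gene symbol (20826) were used for genes, each by its brightest probe set. Groups were compared with limma 3.58.1 in R 4.3.3 (lmFit, eBayes, two-sided, no covariates, Benjamini-Hochberg over 31042 probe sets, threshold 0.05), tested on simulated data. P-values set each difference against the spread between these arrays within groups, moderated over all probe sets. With 3 arrays a group the smallest exact permutation p is 0.1. The members, lists and alternatives were chosen with earlier results of these data known. Values on every array are given for called members with the largest differences and for 8 fixed genes, and 2 rises and 2 falls at most are named per list by rule. Array values of Gpx4 and Prdx6 were added after they were seen. Arrays of the same experiment number deviated together from their group means (correlations 0.262, 0.198 and 0.279), and the design text names 3 experiments, so the experiment was an alternative block. A covariate for the 3' to 5' signal difference was added after seeing the data. Promoter sequences are from RefSeq (GRCr8).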

Additional observations from a re-analysis of the deposited data

How the results depend on the processing

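No called member changed direction under the 19 alternatives. In some of these, such as the blocked, unmoderated and 1.5-fold fits, the differences are those of the main fit. Their direction could not change there. With the experiment as a replicate block 15 member genes were higher and 12 lower, and 1977 and 2753 of all genes. The 4 members gained were Gclm, Prdx5, Prdx6 and Sod2, and no call was lost. Leaving out 1 array gave 9 to 14 higher and 7 to 11 lower member genes, 7 to 12 lower member probe sets and a median of 0.00526 to 0.099. Over all genes, leaving out 1 array gave 1374 to 1915 higher and 1688 to 2178 lower. Without both arrays of experiment 1, 7 member genes and 1842 of all genes were lower, against 11 and 2454 with all arrays. With the unmoderated test 8 member genes were higher and 6 lower. Of the member probe sets 9 were higher and 6 lower, and of all genes 1133 were higher and 1102 lower. Against a fold of 1.5, 6 member genes were higher and 3 lower, 7 probe sets were higher and 3 lower, and 492 of all genes were higher and 391 lower. With probe sets of mean at least 6 the member median was 0.12. Under a covariate for 3' to 5' signal, added after seeing the data, 4 members lost their call (Glrx, Gstm4, Mgst1 and Txnrd3) and 2 gained one (Mgst3 and Prdx6). Median centring called Gclm and Mgst3 lower as well. The unmoderated and 1.5-fold tests are stricter by construction, and the cause of the other changes was not tested. Dim probe sets near background limit what can be seen for 13 members.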
